A study of Mus musculus with 12 samples.

Results

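The 10 genes described here encode 3 subunits of the mouse pyruvate dehydrogenase complex (Pdha1, Pdhb and Pdhx), the 4 kinases that phosphorylate it (Pdk1, Pdk2, Pdk3 and Pdk4), the catalytic subunits of its phosphatases (Pdp1 and Pdp2) and a regulatory phosphatase subunit (Pdpr). They were taken by symbol from the Ensembl identifiers of the deposited RPKM matrix. All 10 were among its 28948 genes, and all 10 were among the 11245 with enough RNA to test. RPKM is reads per kilobase of annotated exon, scaled to the library's total. Levels of different genes can thus be compared, though only roughly, since the transcripts of a gene can differ in length.

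RNA was sequenced from 3T3-L1 adipocytes, fat cells formed in culture from a fibroblast-like line of Swiss mouse embryos. The 4 groups of 3 libraries carried a construct that is labelled as constituent overexpression of FOXP1, an empty vector, a short hairpin RNA against Foxp1, or a scrambled hairpin. Foxp1 is a forkhead transcription factor. All groups were made to differentiate with insulin (5 µg/ml), the PPAR gamma agonist troglitazone (10 µM), the glucocorticoid dexamethasone (1 µM) and isobutyl methylxanthine (0.5 mM). Insulin was the sole additive from day 4, and growth medium was used from day 6. The promoter of the construct, the target sequence of the hairpin, the day of harvest, and whether replicates are separate transductions or dishes are not given in the sources used here, so p-values measure only the spread between these libraries. Foxp1 RNA followed the labels, with 6.56 ± 0.71 RPKM in overexpressing cells and 1.804 ± 0.0349 in empty vector cells, and 1.11 ± 0.0335 in knockdown cells and 2.18 ± 0.0624 in scrambled hairpin cells (SD, n = 3 each).

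The libraries held 35196318 to 38389454 reads assigned to annotated genes, and the 10 genes had 681 to 23947 reads each per library. Of 10 mature fat cell markers, 9 were tested and Lep stayed under 1 RPKM. Their summed level was 2931 to 3212 RPKM in overexpressing cells, 8129 to 8259 in empty vector cells, 8475 to 9168 in knockdown cells and 5965 to 6133 in scrambled hairpin cells. All 9 fell in overexpression, and in knockdown 6 rose and 3 fell (Retn, Pparg and Cebpa), so the sums do not show every marker. The sum of 7 preadipocyte and fibroblast markers was 121.7 to 128 RPKM, 107.8 to 120.2, 125.2 to 140.9 and 142.7 to 161.7 in the same order of groups, with Cd34 under 1 RPKM throughout. Of the 6 tested, 4 rose and 2 fell in overexpression, and 1 rose and 2 fell in knockdown. At the same threshold, 31% of all genes tested were higher and 20.3% lower in overexpression, and 18.7% higher and 31% lower in knockdown. Skeletal muscle markers summed to 36.2 to 42.2 RPKM in overexpressing cells, 12.5 to 13.7 in empty vector cells, 1.49 to 1.87 in knockdown cells and 1.03 to 1.11 in scrambled hairpin cells. Of the 5 in the matrix, Acta1 alone was tested, and Myog, Myf5, Ckm and Myh3 stayed under 1 RPKM. Of 5 macrophage markers, 3 (Ptprc, Adgre1 and Csf1r) stayed under 1 RPKM, and all 5 summed to at most 7.53. All 4 endothelial markers stayed under 1 RPKM. The part of these differences in the results below was not tested, and in bulk RNA a change in the number of cells of a type cannot be told from a change in RNA per cell. In overexpression replicate 3, 13.1% of reads came from the mitochondrial genome, beside 9.99% and 9.65% in replicates 1 and 2.

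Pyruvate dehydrogenase converts pyruvate from glycolysis into acetyl-CoA inside mitochondria, and so commits glucose carbon to the citric acid cycle or, in fat cells, to fatty acid synthesis. Pyruvate dehydrogenase kinases switch the complex off by phosphorylating serines of its alpha subunit, and the phosphatases remove these phosphates and switch it on. The 4 kinases differ in tissue and stimulus. Pdk2 is broadly expressed, Pdk1 is a target of hypoxia-inducible factor, and Pdk4 is induced in fasting through FoxO factors, PPARs and the glucocorticoid receptor.

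The range of group means of log2(RPKM + 1) was widest for the kinases Pdk4 (2.199), Pdk1 (1.401) and Pdk3 (1.37). The phosphatase Pdp1 came next (1.293), and the kinase Pdk2 had 0.7085. The promoters of the 3 kinases with the widest range are shown. Each is the stretch before the RefSeq start site of build GRCm38.p6, cut back where the GENCODE gene model begins further upstream, and is written in the direction of transcription. Pdk4 lies on the minus strand of chromosome 6 and its stretch is chr6:5496310-5496528. That of Pdk1 is chr2:71872974-71873223 on the plus strand, and that of Pdk3 is chrX:93832202-93832400 on the minus strand. Capitals mark GCGTG (the core of a hypoxia response element), CCAAT (the CCAAT box) and GGGCGG (the GC box) on either strand, so that ATTGG is a CCAAT box on the opposite strand.
Pdk4: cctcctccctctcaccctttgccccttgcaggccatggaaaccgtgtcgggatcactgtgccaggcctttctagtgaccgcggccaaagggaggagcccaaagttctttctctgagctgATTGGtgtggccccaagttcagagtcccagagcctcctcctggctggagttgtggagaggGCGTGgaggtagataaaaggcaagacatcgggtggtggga
Pdk1: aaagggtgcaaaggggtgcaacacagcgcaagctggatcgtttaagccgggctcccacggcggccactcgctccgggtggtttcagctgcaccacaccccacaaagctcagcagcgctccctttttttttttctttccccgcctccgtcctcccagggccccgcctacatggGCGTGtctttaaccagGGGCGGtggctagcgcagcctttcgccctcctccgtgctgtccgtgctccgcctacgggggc
Pdk3: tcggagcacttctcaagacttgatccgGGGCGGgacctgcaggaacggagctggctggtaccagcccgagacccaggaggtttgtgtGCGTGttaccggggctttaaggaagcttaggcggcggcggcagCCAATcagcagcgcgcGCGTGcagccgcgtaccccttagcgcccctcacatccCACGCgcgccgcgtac
Promoters of 9 members matched the RefSeq table by symbol, and Pdp1 had no entry. All motifs were searched on both strands of windows of 250 bases before to 50 after the start, for the 9 members and for 32851 mouse promoters of the same length. The forkhead core TGTTTAC was in none of the 9 windows and in 3.65% of all promoters. The nuclear receptor core AGGTCA, found in 16.3% of all promoters, was in none of the 9 either. The same held for the TATA box (TATAAA), found in 13.6%. The hypoxia response core ACGTG, which reads the same site on both strands where it lies within an E-box, was in the windows of Pdhb, Pdk2, Pdk3, Pdp2 and Pdpr, and in 19.6% of all promoters. Its other form, GCGTG, was in those of Pdha1, Pdhb, Pdhx, Pdk1, Pdk3 and Pdk4, and in 32.4% of all promoters. CCAAT occurs in 37.4% of them and GGGCGG in 35.7%. GGGCGG was not in the Pdk4 window, while the Pdk1 and Pdk3 windows each held 2 matches on either strand together. These are letter matches in a short window and say nothing of binding.

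**Figure D1:**
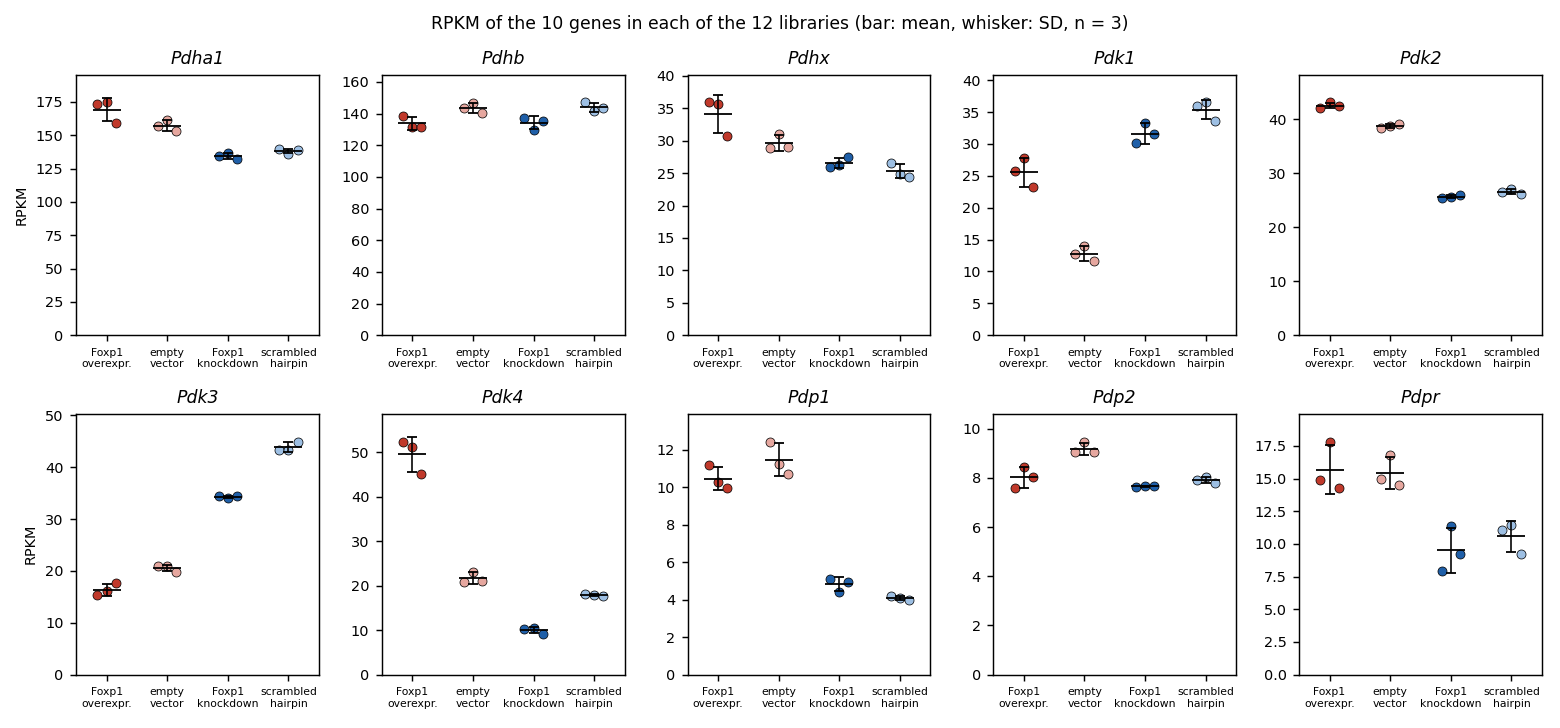
RPKM (y axes, from 0) of each of the 10 genes in the 12 libraries, by group (x axes). Points are libraries, bars are means and whiskers SD over 3 libraries. Pdk4 and Pdk1 were highest against their control in overexpressing cells, while Pdk1 and Pdk3 were high and Pdp1 low in both hairpin groups.

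The catalytic subunits Pdha1 and Pdhb were the most abundant members in every group, between 129.7 and 174.5 RPKM in any library. Pdhx, the subunit that anchors dihydrolipoamide dehydrogenase in the core, had 24.5 to 35.9 RPKM. Below the catalytic subunits the order of members differed between groups. In overexpressing cells it was Pdk4 (49.6 RPKM), Pdk2 (42.6), Pdhx (34.1), Pdk1 (25.6) and Pdk3 (16.4), and in empty vector cells it was Pdk2 (38.8), Pdhx (29.6), Pdk4 (21.7), Pdk3 (20.5), Pdpr (15.4) and Pdk1 (12.8). In knockdown cells it was Pdk3 (34.3), Pdk1 (31.6), Pdhx (26.6), Pdk2 (25.7) and Pdk4 (10.0), and in scrambled hairpin cells Pdk3 (43.9), Pdk1 (35.4), Pdk2 (26.6), Pdhx (25.3) and Pdk4 (17.9). Pdp1 and Pdp2 closed the order in every group. Neighbours whose libraries overlapped were Pdk3 and Pdpr in overexpressing cells, Pdk4 and Pdk3 as well as Pdk1 and Pdp1 in empty vector cells, Pdha1 and Pdhb, Pdhx and Pdk2, and Pdk4 and Pdpr in knockdown cells, and Pdk2 and Pdhx in scrambled hairpin cells.

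Foxp1 overexpression was compared with the empty vector, which gives the response of these genes to a raised Foxp1 level. Pdk4 RNA rose to 2.28 times and Pdk1 RNA to 1.998 times the control mean, Pdk2 rose slightly, and Pdk3 fell. Of the phosphatases, Pdp2 fell. Of the subunits, Pdhx rose and Pdhb fell by little. In all, 7 of 10 members passed the test of limma on log2(RPKM + 1) at a Benjamini-Hochberg adjusted p under 0.05, 4 higher and 3 lower, where 51.4% of all genes tested did (31% higher and 20.3% lower). The median log2 fold change was 0.06 over the members and 0.04 over all genes. With libraries rescaled to TPM, which gives every library the same sum of length-corrected levels, 2 members were higher and 4 lower, and over all genes 2437 higher and 2580 lower, beside 3490 and 2285 on RPKM.

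Pdk4 had 52.4, 51.2 and 45.1 RPKM in overexpressing cells, against 20.8, 23.2 and 21.1 in empty vector cells. The groups lay far apart, and the lowest overexpressing library was replicate 3. The ratio of means was 2.28, with a log2 fold change of 1.15 (SE 0.0625, adjusted p = 1.38e-08). Pdk1 had 25.7, 27.8 and 23.2 RPKM in overexpressing cells, against 12.8, 13.9 and 11.6 in empty vector cells. Again every overexpressing library was above every control. The ratio of means was 1.998 and the log2 fold change 0.94 (SE 0.0711, adjusted p = 2.73e-07).

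Pdk2 was at 42.1, 43.1 and 42.4 RPKM in overexpressing cells, against 38.5, 38.7 and 39.1 in empty vector cells, a small difference without overlap. Its log2 fold change of 0.13 passed (adjusted p = 0.0025), but not with libraries rescaled to TPM (adjusted p = 0.130). Pdk3, whose product is known as the kinase least inhibited by pyruvate, ran the other way. It had 15.4, 16.2 and 17.6 RPKM in overexpressing cells, against 20.9, 20.9 and 19.8 in empty vector cells, with no overlap (log2 fold change -0.31, adjusted p = 9.8e-05).

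Of the phosphatases, Pdp2 had 7.58, 8.43 and 8.04 RPKM in overexpressing cells, against 9.03, 9.47 and 9.06 in empty vector cells. These groups did not overlap, and the log2 fold change of -0.18 passed (adjusted p = 0.00216). Pdp1, the calcium-stimulated phosphatase, had 11.2, 10.3 and 9.94 RPKM in overexpressing cells, against 12.4, 11.2 and 10.7 in empty vector cells, and the groups overlapped. Its log2 fold change was -0.12 (95% confidence interval -0.25 to 0.01, adjusted p = 0.118). Pdpr, the regulatory subunit, had 15.7 ± 1.88 RPKM in overexpressing cells and 15.4 ± 1.22 in empty vector cells (SD, n = 3 each; log2 fold change 0.02, interval -0.24 to 0.27, adjusted p = 0.916).

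Among the subunits, Pdhx had 35.9, 35.6 and 30.8 RPKM in overexpressing cells, against 28.8, 31.0 and 29.0 in empty vector cells. Replicate 3 of the overexpressing cells lay within the control range, and the log2 fold change of 0.19 passed (adjusted p = 0.0132). That call was lost when overexpression replicate 1 (adjusted p = 0.0541) or 2 (0.0553) was left out, and with TPM (0.119). Pdha1, on the X chromosome at 160122209 to 160138413 of GRCm38, had 174, 175 and 159 RPKM in overexpressing cells, against 157, 161 and 153 in empty vector cells. With replicate 3 in the control range it missed the threshold (log2 fold change 0.10, interval 0.01 to 0.19, adjusted p = 0.0504), and without that library it passed (0.15, adjusted p = 0.00239). Pdhb had 139, 131.3 and 132 RPKM in overexpressing cells, against 143, 147 and 141 in empty vector cells, a gap smaller than 3 RPKM between the groups (log2 fold change -0.10, adjusted p = 0.038). Its call ended when empty vector replicate 1 (adjusted p = 0.0843) or 2 (0.134), or overexpression replicate 2 (0.116) or 3 (0.0636), was left out. It also ended with only the libraries compared (0.0892) and when rescaled to reads outside the mitochondrial genome (0.126). The ratio of Pdha1 to Pdhb RPKM was 1.26 ± 0.0621 in overexpressing cells and 1.09 ± 0.0037 in empty vector cells (SD, n = 3 each, not tested).

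Foxp1 knockdown was compared with the scrambled hairpin, which gives the response to a lowered Foxp1 level. Pdk4 and Pdk3 RNA fell, Pdp1 rose, and Pdhb fell by little. Pdk1 and Pdk2 did not pass. The count was 4 of 10 members, 1 higher and 3 lower, where 49.7% of all genes tested passed (18.7% higher and 31% lower, or 2650 higher and 2925 lower with quantile normalization beside 2100 and 3487 without). It was 2 of 10 without scrambled hairpin replicate 3 and 2 of 10 without knockdown replicate 3. The median log2 fold change was -0.08 over the members and -0.04 over all genes.

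Pdk4 had 10.3, 10.5 and 9.22 RPKM in knockdown cells, against 18.2, 18.0 and 17.6 in scrambled hairpin cells. The groups stood well apart, with a ratio of means of 0.558 and a log2 fold change of -0.78 (SE 0.0625, adjusted p = 1.64e-06). Pdk3 had 34.5, 34.0 and 34.4 RPKM in knockdown cells, against 43.4, 43.4 and 44.9 in scrambled hairpin cells, again without overlap. Its ratio was 0.781 and its log2 fold change -0.35 (SE 0.0447, adjusted p = 5.58e-05). Pdk1 had 30.1, 33.2 and 31.6 RPKM in knockdown cells, against 35.98, 36.5 and 33.7 in scrambled hairpin cells. The nearest libraries were less than 1 RPKM apart, and the log2 fold change of -0.16 missed the threshold (interval -0.31 to -0.0022, adjusted p = 0.0856). Pdk2 had 25.4, 25.6 and 26.0 RPKM in knockdown cells, against 26.5, 27.0 and 26.2 in scrambled hairpin cells (log2 fold change -0.05, interval -0.11 to 0.01, adjusted p = 0.184).

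Pdp1 had 5.11, 4.41 and 4.96 RPKM in knockdown cells, against 4.17, 4.07 and 3.99 in scrambled hairpin cells. All knockdown libraries were higher, and the log2 fold change of 0.20 passed (SE 0.0602, adjusted p = 0.0168). That call was lost without scrambled hairpin replicate 3 (adjusted p = 0.0516) and without knockdown replicate 1 (0.0694) or 3 (0.0578). Pdp2 averaged 7.65 ± 0.0158 RPKM in knockdown cells and 7.92 ± 0.123 in scrambled hairpin cells (SD, n = 3 each; log2 fold change -0.04, interval -0.13 to 0.04, adjusted p = 0.367). Pdpr had 7.92, 11.4 and 9.26 RPKM in knockdown cells, against 11.05, 11.5 and 9.22 in scrambled hairpin cells, so the groups overlapped widely (log2 fold change -0.15, interval -0.40 to 0.11, adjusted p = 0.324).

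Among the subunits, Pdhb had 137, 129.7 and 135.5 RPKM in knockdown cells, against 147, 141 and 144 in scrambled hairpin cells (log2 fold change -0.10, adjusted p = 0.0388). The groups did not overlap, but the call was lost without scrambled hairpin replicate 1 (adjusted p = 0.135), 2 (0.0512) or 3 (0.078), without knockdown replicate 2 (0.132) or 3 (0.0638), with no filter on low values (0.0532), with median-ratio scaling (0.225) and when rescaled to reads outside the mitochondrial genome (0.0731). Pdha1 averaged 134 ± 2.39 RPKM in knockdown cells and 138 ± 1.73 in scrambled hairpin cells, and Pdhx 26.6 ± 0.763 and 25.3 ± 1.08 in the same order (SD, n = 3 each). Their log2 fold changes were -0.04 (interval -0.13 to 0.05, adjusted p = 0.44) and 0.07 (interval -0.06 to 0.19, adjusted p = 0.347).

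**Figure D2:**
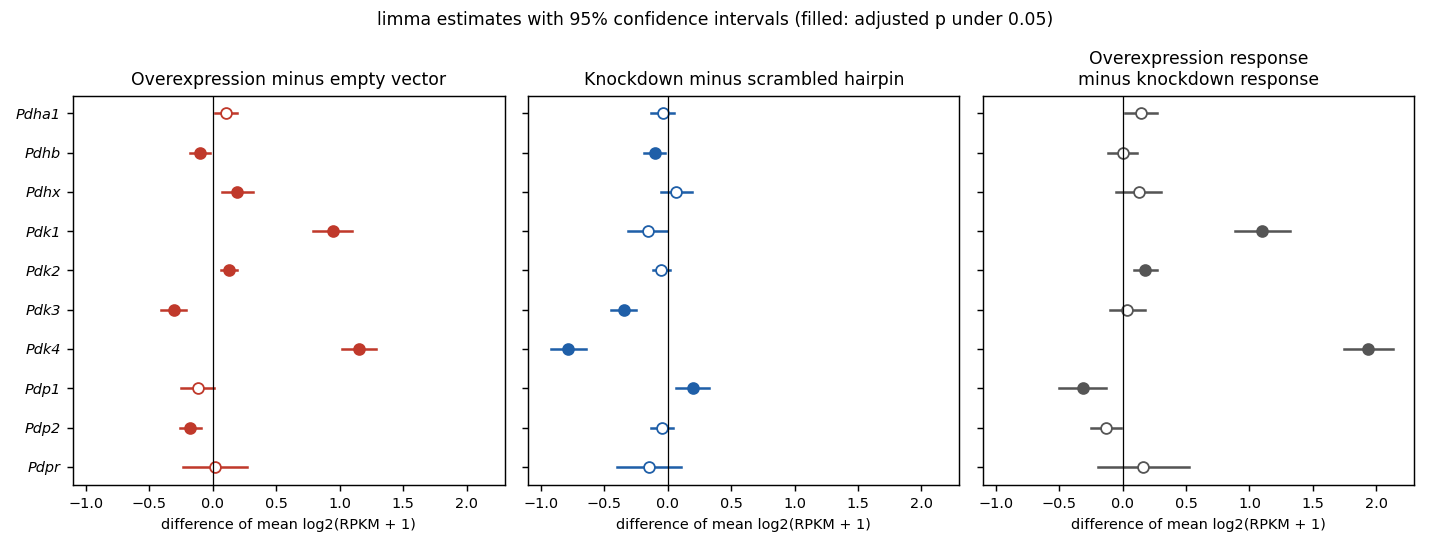
Difference of mean log2(RPKM + 1) (x axes) for each gene (rows) in overexpression minus empty vector, knockdown minus scrambled hairpin, and the first of these minus the second. Points are limma estimates, lines are 95% confidence intervals, and filled points have an adjusted p under 0.05. Pdk4 lay at 1.15 and -0.78 in the first and second panels, and Pdk3 at -0.31 and -0.35.

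The responses to more and to less Foxp1 share no library, and their difference was tested in the same model. It passed for 4 of 10 members, 3 higher and 1 lower, where 54.9% of all genes tested passed (34.6% higher and 20.3% lower, or 3069 higher and 2989 lower with quantile normalization beside 3888 and 2285 without). Pdk4 had the largest difference of responses of the set, at 1.94 (SE 0.0884, adjusted p = 4.21e-09). In the main fit it was the member that passed in opposite directions in the separate comparisons. Pdk1 and Pdp1 did so too under some of the alternatives given below. The difference was 1.10 for Pdk1 (SE 0.1005, adjusted p = 1.81e-06), 0.18 for Pdk2 (SE 0.0412, adjusted p = 0.00274, or 0.0633 with median-ratio scaling) and -0.32 for Pdp1 (SE 0.0851, adjusted p = 0.00754). Pdk3 and Pdhb fell in both comparisons, and their responses differed by 0.04 (interval -0.10 to 0.18, adjusted p = 0.636) and 7.37e-05 (interval -0.11 to 0.12, adjusted p = 0.999). Pdha1 (0.14, adjusted p = 0.0515) and Pdp2 (-0.13, adjusted p = 0.0559) missed the threshold. Pdha1 and Pdhx passed without overexpression replicate 3 (adjusted p = 0.00304 and 0.0135), and Pdp2 without overexpression replicate 2 (0.0196).

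The scrambled hairpin and empty vector cells, neither of which carried a construct meant to change Foxp1, were compared as controls. Foxp1 RNA itself was higher in scrambled hairpin cells, at 1.21 times the empty vector mean (log2 fold change 0.18, limma adjusted p = 0.0133). Pdk1 and Pdk3 RNA were higher in scrambled hairpin cells, and Pdp1, Pdk2 and Pdpr were the members with the largest falls. Of 10 members, 2 were higher in scrambled hairpin cells and 7 lower, where 71.8% of all genes tested passed (44.8% higher and 27% lower, or 4045 higher and 3893 lower with quantile normalization beside 5037 and 3033 without). Pdk1 was at 35.4 ± 1.51 RPKM in scrambled hairpin cells and 12.8 ± 1.15 in empty vector cells, 2.76 times as much (log2 fold change 1.401, adjusted p = 4.21e-09). Pdk3 was at 43.9 ± 0.877 and 20.5 ± 0.599 RPKM in the same order, with 2.14 as their quotient (log2 fold change 1.06, adjusted p = 8.58e-10). Pdp1 went the other way, with 4.08 ± 0.0931 RPKM in scrambled hairpin cells and 11.5 ± 0.874 in empty vector cells, 0.356 times as much (log2 fold change -1.29, adjusted p = 1.98e-09; SD, n = 3 each). The log2 fold change was -0.53 for Pdk2, -0.51 for Pdpr, -0.26 for Pdk4, -0.22 for Pdhx, -0.19 for Pdp2 and -0.18 for Pdha1, with adjusted p between 8.46e-09 and 0.00401. The calls of Pdha1 and Pdhx ended with libraries rescaled to TPM (adjusted p = 0.0987 and 0.0834). Pdhb differed by 0.0037 (interval -0.08 to 0.09, adjusted p = 0.935). The type of construct and any difference between the 2 experiments cannot be told apart here, and this comparison shares its libraries with those above.

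**Figure D3:**
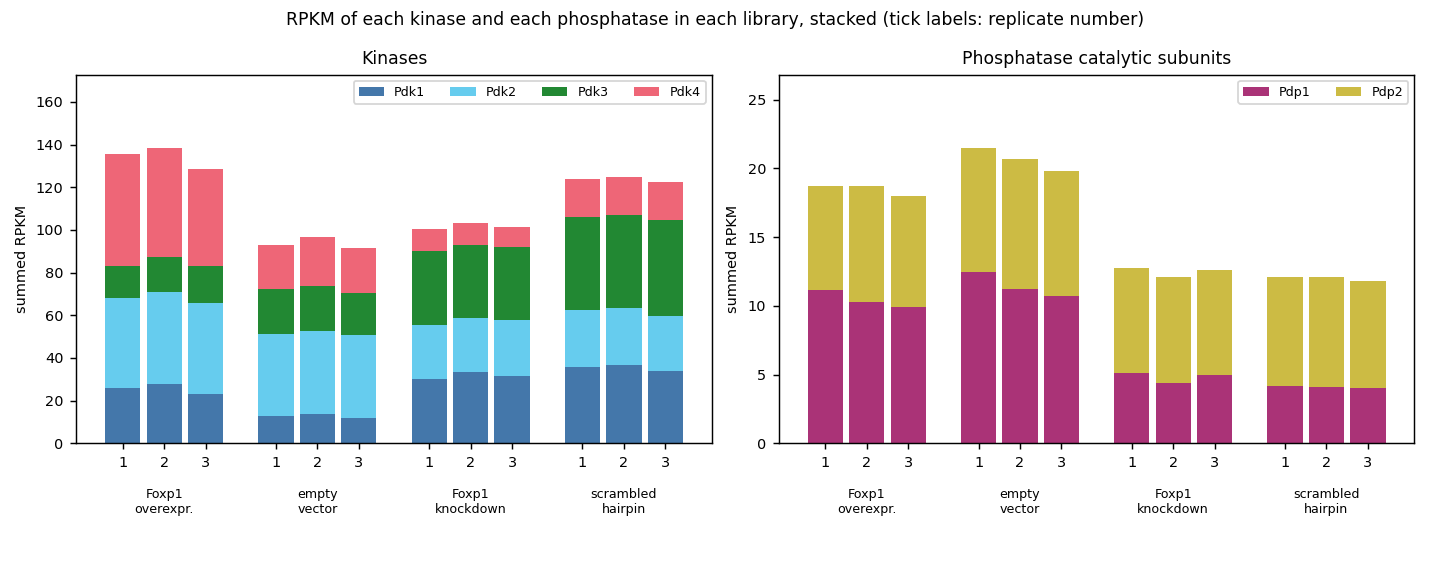
Summed RPKM (y axes, from 0) of the kinases and of the phosphatase catalytic subunits in each library (bars, labelled by replicate number within group). The kinase sum was 134 RPKM with overexpression, 93.8 with empty vector, 102 with knockdown and 124 with scrambled hairpin, and Pdk4 took 36.9%, 23.1%, 9.85% and 14.5% of it.

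Since RPKM is per length, the kinases can be added to show which of them supplied the kinase RNA. These sums describe the members and carry no test. The length counts all annotated exons of a gene, 7779 bases over 8 transcripts for Pdk1 and 2561 over 3 for Pdk3. Shares thus also depend on which transcripts were expressed, which was not examined. The 4 kinases together had 136, 138 and 128 RPKM in overexpressing cells, against 92.9, 96.8 and 91.7 in empty vector cells, and 100.2, 103 and 101 in knockdown cells, against 124, 125 and 122 in scrambled hairpin cells. Neither pair of groups overlapped. Pdk4 supplied 36.9% ± 1.76 of the kinase sum in overexpressing cells and 23.1% ± 0.812 in empty vector cells, where Pdk2 led with 41.4% ± 1.31. In both hairpin groups Pdk3 led, with 33.8% ± 0.76 in knockdown cells and 35.5% ± 1.07 in scrambled hairpin cells, and Pdk4 supplied 9.85% ± 0.634 and 14.5% ± 0.138 in the same order (SD, n = 3 each).

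Pdp1 and Pdp2 together had 18.5 ± 0.434 RPKM in overexpressing cells and 20.6 ± 0.842 in empty vector cells, and 12.5 ± 0.352 in knockdown cells and 11.996 ± 0.18 in scrambled hairpin cells. Pdp1 was the more abundant of the pair in the vector groups and Pdp2 in the hairpin groups. The kinase sum was 7.25 ± 0.123 times the phosphatase sum in overexpressing cells and 4.55 ± 0.189 times in empty vector cells, and 8.15 ± 0.361 times in knockdown cells and 10.3 ± 0.0558 times in scrambled hairpin cells (SD, n = 3 each). The ratio was thus higher with overexpression and lower with knockdown than in the control of each, in every library. These are ratios of RNA, not of enzyme activity.

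The rest of the complex and its cofactors were described with a list of 11 genes, of which 10 were tested. In overexpression 4 rose and 3 fell (median log2 fold change 0.11), and in knockdown 0 rose and 4 fell (median -0.03). The counts of this and the following lists stand beside 31% of all genes tested higher and 20.3% lower in overexpression, and 18.7% higher and 31% lower in knockdown. Dlat, the acetyltransferase core subunit, had 71.2 ± 3.27 RPKM in overexpressing cells and 60.7 ± 1.68 in empty vector cells (0.23, adjusted p = 3.61e-04), and 51.7 ± 0.935 in knockdown cells and 58.1 ± 0.719 in scrambled hairpin cells (-0.16, adjusted p = 0.00387; SD, n = 3 each). The lipoate transferase Lipt1 rose in overexpression (0.21, adjusted p = 0.00519, or 0.0524 with TPM). Dlat thus passed in opposite directions, as Pdk4 did. The count in knockdown was 2 with only the libraries compared, and without scrambled hairpin replicate 1 or 2.

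Of 12 genes of pyruvate supply and its other fates, 10 were tested. In overexpression 5 rose and 3 fell (median 0.22), and in knockdown 3 rose and 2 fell (median 0.06). The 3 with the smallest adjusted p in overexpression all rose there. The monocarboxylate transporter Slc16a1 had 22.4 ± 0.669 RPKM in overexpressing cells and 11.4 ± 0.451 in empty vector cells (0.92, adjusted p = 2.95e-09), and the log2 fold change was 0.66 for pyruvate kinase (Pkm, adjusted p = 1.15e-08) and 0.81 for lactate dehydrogenase A (Ldha, adjusted p = 1.16e-08). In knockdown Slc16a1 (0.25, adjusted p = 3.92e-04) and Ldha (0.16, adjusted p = 0.00989) also rose, and Pkm did not pass (-0.01, adjusted p = 0.828).

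The transaminase Gpt2, which links pyruvate and alanine, fell in both, with 22.6 ± 1.96 RPKM in overexpressing cells and 37.7 ± 1.66 in empty vector cells (-0.72, adjusted p = 1.71e-06), and 49.3 ± 3.35 in knockdown cells and 74.7 ± 3.26 in scrambled hairpin cells (-0.59, adjusted p = 1.79e-05; SD, n = 3 each). Malic enzyme 1 (Me1), which makes pyruvate and NADPH, fell in overexpression (-0.35, adjusted p = 4.82e-05) and rose in knockdown (0.28, adjusted p = 3.99e-04). Lactate dehydrogenase B (Ldhb) rose in overexpression (0.29, adjusted p = 8.98e-04) and fell in knockdown (-0.25, adjusted p = 0.00279).

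Related mitochondrial dehydrogenases, which use the same chemistry and in the branched-chain case the same kind of kinase and phosphatase control, were described with 8 genes, all tested. In overexpression 4 rose and 2 fell (median 0.09), and in knockdown 1 rose and 5 fell (median -0.17). The branched-chain phosphatase Ppm1k fell in both, with 2.17 ± 0.112 RPKM in overexpressing cells and 2.97 ± 0.258 in empty vector cells (-0.32, adjusted p = 0.00182), and 2.20 ± 0.313 in knockdown cells and 3.19 ± 0.129 in scrambled hairpin cells (-0.39, adjusted p = 5.58e-04). The branched-chain subunits Bckdha and Bckdhb moved apart in both. Bckdha fell (-0.33 in overexpression and -0.27 in knockdown) and Bckdhb rose (0.27 and 0.21, adjusted p at most 0.00614 for all of these). The branched-chain kinase Bckdk fell in knockdown, with 27.4 ± 0.716 RPKM in knockdown cells and 32.9 ± 0.52 in scrambled hairpin cells (-0.26, adjusted p = 1.03e-04; SD, n = 3 each). Bckdk rose in overexpression (0.11, adjusted p = 0.019).

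Transcription factors and coactivators that have been studied as regulators of pyruvate dehydrogenase kinases made up a list of 15, of which 12 were tested. In overexpression 5 rose and 5 fell (median 0.01), and in knockdown 1 rose and 9 fell (median -0.30), so that 10 of 12 passed in each, where 51.4% and 49.7% of all genes tested did. Foxo1, the insulin-restrained forkhead factor, had 22.2 ± 0.883 RPKM in overexpressing cells and 10.8 ± 0.155 in empty vector cells (0.98, adjusted p = 1.16e-09), and 10.95 ± 0.524 in knockdown cells and 18.1 ± 0.195 in scrambled hairpin cells (-0.68, adjusted p = 1.67e-07). The coactivator Ppargc1b moved likewise (0.39, adjusted p = 6.52e-05, and -0.45, adjusted p = 2.85e-05). Rxra, the partner of PPARs, fell in both (-0.39, adjusted p = 7.51e-06, and -0.33, adjusted p = 5.2e-05). Whether any of these act on the kinases in these cells was not tested.

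**Figure D4:**
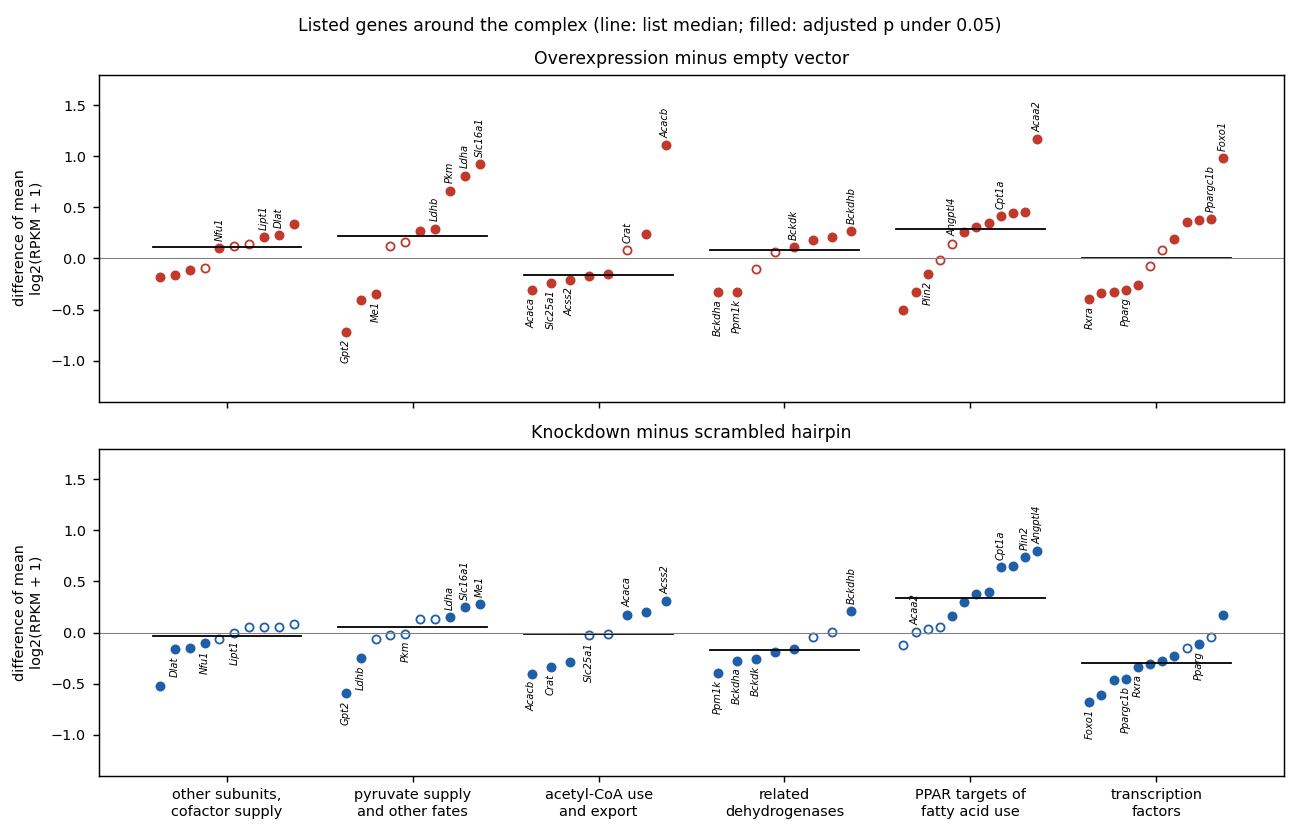
Difference of mean log2(RPKM + 1) (y axes) of every tested gene of 6 lists around the complex (x axis), in overexpression minus empty vector (top) and knockdown minus scrambled hairpin (bottom). Points are genes, filled where the adjusted p was under 0.05, and lines are list medians. Foxo1 lay at 0.98 and -0.68, and Gpt2 at -0.72 and -0.59. Genes named in the text are labelled.

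Genes with the pattern most like that of the 2 members with the widest range of group means, Pdk4 and Pdk1, were sought by the root mean square difference over the 12 libraries of centred log2(RPKM + 1) values. Near Pdk4 were Pald1 (0.0807), the amino acid transporter Slc36a2 (0.0836), Tent5b (0.143) and Il17re (0.153). Pald1 averaged 8.07 RPKM in overexpressing cells, 3.10 in empty vector cells, 1.15 in knockdown cells and 2.56 in scrambled hairpin cells, and Slc36a2 8.47, 3.40, 1.16 and 2.50 in the same order. For Pdk1 the nearest were Dmkn (0.0926), Trim29 (0.0936), the processed pseudogene Gm12286 (0.106), Gpr35 (0.119) and Eno1b (0.123). Trim29 averaged 16.3 RPKM in overexpressing cells, 8.55 in empty vector cells, 22.0 in knockdown cells and 23.5 in scrambled hairpin cells. Gpr35 averaged 0.726 RPKM in overexpressing cells, 0.0591 in empty vector cells, 1.254 in knockdown cells and 1.69 in scrambled hairpin cells, and Dmkn 2.17, 0.604, 2.73 and 3.67 in the same order. At such levels the added 1 RPKM shrinks fold changes, so their nearness to Pdk1 holds on the log2(RPKM + 1) scale and not as a fold, and Gpr35 had a mean above 1 RPKM in the hairpin groups only. The same limit applies near Pdk4 to Pald1, Slc36a2 and Il17re, which averaged 1.15, 1.16 and 0.964 RPKM in knockdown cells. The likeness is over libraries of 4 groups and describes these levels only.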

How the data were processed

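The authors deposited RPKM per gene and library, divided by 1000. No label states the factor. It was inferred from the recovered reads, whose number and value of 1 read gave 1001.5 to 1001.7 in every library, and the values were multiplied by 1000. Per the submitters' processing notes, HISAT2 2.1.0, featureCounts and Subread 1.5.3 were used on build mm10. Their settings, strandedness and the handling of reads that match several places are not given in the sources used here. Symbols, positions and exon lengths came from GENCODE M21 (GRCm38) for 28896 of 28948 identifiers. Value times exon length was a whole number of reads, within 0.05, for 98.8% to 98.9% of values above 0, which gave the depth. Exons on the opposite strand overlap 603 bases of Pdha1 (Map3k15, at most 0.229 RPKM) and 169 bases of Pdpr (9430091E24Rik, at most 1.25 RPKM), and without a strand setting such reads cannot be told apart.

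Testing was by limma on log2(RPKM + 1), for genes that reached 1 RPKM in 3 or more libraries (limma 3.58.1, R 4.3.3, variance trend, a single model of 4 groups, Benjamini-Hochberg threshold 0.05). This scale understates fold changes of low genes. The method was tested on simulated data with few changed genes and a fixed spread. The data here differ in this, so that test does not vouch for the calls. Sums and ratios were not tested. Named genes were the members, Foxp1, up to 4 genes per list and comparison by smallest adjusted p, and the 5 genes nearest in pattern to each of 2 members. Some listed or neighbouring genes are not reported here. Members and lists were chosen with earlier results of these data known. Alternatives were other pseudocounts, filters, scalings and variance models, a replicate block and the omission of single libraries. After the data were seen, voom on recovered reads and a rescaling that left out mitochondrial reads were added. Figures used Python 3.11.15 and matplotlib 3.10.9.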

Additional observations from a re-analysis of the deposited data

How the results depend on the processing

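Of 40 results (10 members in 4 comparisons), 26 kept their side of the threshold under all alternatives run and 14 changed side at least once. No call changed direction. Pdk4 and Pdk3 passed under every alternative in overexpression, knockdown and the control comparison, and so did Pdk1 in overexpression and the control comparison. In overexpression Pdk4 ranged over 1.11 to 1.22 and Pdk1 over 0.88 to 1.01, and in knockdown Pdk4 ranged over -0.86 to -0.73. Leaving out single libraries gave 5 to 7 members called in overexpression, 2 to 3 in knockdown, 4 to 6 for the difference of responses and 9 in each case for the controls. The 2 in knockdown were counted without scrambled hairpin replicate 3 and without knockdown replicate 3. Calls over all genes ranged over 4904 to 6148 in overexpression, 4721 to 5323 in knockdown, 5647 to 6597 for the difference and 7483 to 7591 for the controls when single libraries were left out.

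Whether replicate numbers pair the libraries could not be settled, since deviations from a mean of 3 libraries are not independent of each other. In these deviations, same-numbered libraries of overexpression and empty vector correlated at -0.0132 to 0.118, and differently numbered libraries at -0.141 to 0.0717. For knockdown and scrambled hairpin the correlations were -0.0727 to 0.0492 with the same number and -0.189 to 0.237 with different numbers. With a replicate block, 9 members were called in overexpression, 5 in knockdown, 6 for the difference and 9 for the controls, of 5888, 5709, 6328 and 8164 genes. Under the block Pdk1 in knockdown passed (adjusted p = 0.0172), as it did with only the libraries compared (0.0225). Pdp1 in overexpression passed under the block (0.0496), and with libraries scaled to TPM (0.0498), by median ratio (0.0395) or by quantile (0.0378). Pdha1 in overexpression passed with both other pseudocounts, the stricter filter, the block, voom and the rescaling outside the mitochondrial genome (adjusted p between 0.00675 and 0.04995). For the difference of responses, Pdp2 passed with median-ratio scaling (0.00981), quantile normalization (0.00576) and the block (0.0404), and Pdha1 with the block (0.0416), voom (0.0446) and the rescaling outside the mitochondrial genome (0.0167). The causes were not tested. Tested on recovered reads with voom, 5866 genes were called in overexpression, 5762 in knockdown, 6245 for the difference and 8123 for the controls. The least covered value of a member rested on 681 reads, and the part of depth in these calls was not tested.

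Of 72 results of listed genes, 68 kept their side throughout, and the 4 exceptions included Lipt1 in overexpression and Nfu1 in knockdown.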

Other observations

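Genes that use or export acetyl-CoA, the product of the complex, were mixed. Of 9 listed, 8 were tested, and 2 rose and 5 fell in overexpression (median log2 fold change -0.16), while 3 rose and 3 fell in knockdown (median -0.01). Acacb, the acetyl-CoA carboxylase of the mitochondrial surface that restrains fatty acid oxidation, had 9.02 ± 1.28 RPKM in overexpressing cells and 3.62 ± 0.27 in empty vector cells (1.11, limma adjusted p = 6.29e-07), and 2.38 ± 0.25 in knockdown cells and 3.47 ± 0.353 in scrambled hairpin cells (-0.40, adjusted p = 0.00308). Acaca, the lipogenic carboxylase, fell in overexpression (-0.31, adjusted p = 8.27e-04), and so did the citrate carrier Slc25a1 (-0.24, adjusted p = 6.51e-05). In knockdown Acaca rose (0.18, adjusted p = 0.0259) and Slc25a1 did not pass (-0.02, adjusted p = 0.638). Acss2, which makes acetyl-CoA from acetate, had 10.3 ± 0.434 RPKM in overexpressing cells and 12.1 ± 0.528 in empty vector cells, and 16.04 ± 0.507 in knockdown cells and 12.8 ± 0.333 in scrambled hairpin cells (-0.21 and 0.30, adjusted p = 0.00114 and 1.02e-04; SD, n = 3 each). Carnitine acetyltransferase (Crat) fell in knockdown (-0.34, adjusted p = 7.19e-05).

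Pdk4 is often listed with PPAR target genes of fatty acid use, and 12 of 15 such genes were tested. In overexpression 7 rose and 3 fell (median 0.29), and in knockdown 8 rose and 0 fell (median 0.34). Over all genes tested, 31% were higher and 20.3% lower in overexpression, and 18.7% higher and 31% lower in knockdown. Acaa2, a thiolase of fatty acid oxidation, had 269 ± 24.6 RPKM in overexpressing cells and 119 ± 1.4 in empty vector cells (1.17, limma adjusted p = 4.6e-09; SD, n = 3 each), and did not pass in knockdown (0.01, adjusted p = 0.949). Plin2, a lipid droplet protein, had 238 ± 6.18 RPKM in knockdown cells and 142 ± 3.54 in scrambled hairpin cells (0.74, adjusted p = 5.39e-08), and fell in overexpression (-0.15, adjusted p = 0.00442). Angptl4, an inhibitor of lipoprotein lipase, had 94.6 ± 4.69 and 54.2 ± 2.73 RPKM in the same order (0.79, adjusted p = 9.06e-06). Cpt1a, which admits fatty acids to mitochondria, rose in overexpression (0.42, adjusted p = 9.17e-06) and in knockdown (0.64, adjusted p = 7.16e-07). The testis paralog of Pdha1, Pdha2, averaged 0.0225 RPKM in empty vector cells and was listed at 0 in the libraries of the other groups.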
